A study of Mus musculus with 41 samples.

Results

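Immune checkpoint genes encode the receptors and ligands that restrain or license T cells, and 10 of them were examined in 41 mouse mammary tumors: Cd274, Pdcd1lg2, Pdcd1, Ctla4, Lag3, Havcr2, Tigit, Cd80, Cd86 and Ido1. They were chosen by symbol, and all 10 had a row among the 47480 gene symbols of the expression matrix. The tumors were BALB/c, untreated, and grew in the mammary fat pads of syngeneic, immune-competent hosts, and all of them lacked p53. The 28 Plk2-/-; p53-/- tumors also lacked the kinase Plk2, and the 13 p53-/- tumors served as the comparison. The Plk2-/-; p53-/- tumors came from mammary epithelial cells placed in cleared fat pads of wild-type mice. The age of the hosts was not given in the sources used here. PLK2null-732, PLK2null-733 and PLK2null-743 and the p53-/- tumor T11 were placed in the claudin-low subtype by the study, from clustering of expression, so that subtype was not assigned independently of these libraries. The labels do not say which tumors descend from the same primary tumor, and each tumor was entered as an independent sample. The p-values therefore measure the spread between these tumors. Where tumors share a primary tumor, such p-values are too small and overstate the evidence.

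T cells need a second signal beside the antigen receptor. Cd80 and Cd86 on antigen-presenting cells give it through Cd28, and Ctla4 competes for the same ligands and blocks it. Cd274 (PD-L1) and Pdcd1lg2 (PD-L2) bind Pdcd1 (PD-1) and dampen activated T cells. Lag3, Havcr2 (TIM-3) and Tigit are further inhibitory receptors, of which Havcr2 is also carried by macrophages and dendritic cells, and Ido1 degrades tryptophan. In bulk tumor RNA, fewer cells of a type and less RNA per cell cannot be told apart.

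Each tumor gave 1 library, with an implied 29409609 to 70868124 fragments on genes. Deposited values are Salmon gene counts scaled so that the upper quartile of nonzero values was 1000 in each tumor. 1 read was worth 0.388 to 0.817 of these units, and 3 reads, used as the floor of detection, 1.16 to 2.45. Plk2 was lower in Plk2-/-; p53-/- tumors by limma on log2(value + 1) (log2 difference, -3.39). The exception was p53null-7435 at 186, inside the Plk2-/-; p53-/- range of 36.6 to 553. The epithelial genes Cldn3, Cldn7 and Epcam were at 1.13 to 87.4 in the 4 claudin-low tumors and at 138 or more in all other tumors, although the 8 epithelial markers, keratins included, still summed to 33791 in T11 and to 53.6 to 404 in the other claudin-low tumors. The titles of all p53-/- libraries, and of no Plk2-/-; p53-/- library, carry a numbered series name, so genotype and library series cannot be told apart.

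Sequences upstream of the genes were taken from RefSeq (GRCm38.p6), in which 7 of the 10 genes matched; Lag3, Cd86 and Ido1 are named only. Cd274 and Pdcd1lg2 lie beside each other on chromosome 19, on the plus strand, at 29367455 to 29388095 and 29410919 to 29471161 in GENCODE vM21 (GRCm38). The 47 bases shown for Cd274 end just before its RefSeq start, which lies upstream of the GENCODE start, and reach back to the first exon of Plgrkt, which is read from the opposite strand. They are shown because Cd274 was called between genotypes and this close neighbor was not. The 250 bases before the start of Pdcd1lg2 are shown because it was highest in the same tumor as Cd274. Those of Cd80 and Havcr2 are shown because each holds a match, in capitals, to TGANTCA. That is a loose form of the AP-1 motif with any base at N.
Cd274, chr19:29367391-29367437, plus strand: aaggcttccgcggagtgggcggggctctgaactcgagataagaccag
Pdcd1lg2, chr19:29410669-29410918, plus strand: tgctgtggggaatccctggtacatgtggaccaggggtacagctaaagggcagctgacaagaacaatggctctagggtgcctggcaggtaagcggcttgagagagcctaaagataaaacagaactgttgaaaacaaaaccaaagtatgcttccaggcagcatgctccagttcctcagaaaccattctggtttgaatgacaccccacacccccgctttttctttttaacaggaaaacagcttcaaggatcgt
Cd80, chr16:38458683-38458932, plus strand: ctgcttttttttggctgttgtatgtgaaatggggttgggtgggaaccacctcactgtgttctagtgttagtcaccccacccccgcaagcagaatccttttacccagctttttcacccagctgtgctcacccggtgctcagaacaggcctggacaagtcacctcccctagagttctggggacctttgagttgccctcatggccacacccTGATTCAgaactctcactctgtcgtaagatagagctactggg
Havcr2, chr11:46454681-46454930, plus strand: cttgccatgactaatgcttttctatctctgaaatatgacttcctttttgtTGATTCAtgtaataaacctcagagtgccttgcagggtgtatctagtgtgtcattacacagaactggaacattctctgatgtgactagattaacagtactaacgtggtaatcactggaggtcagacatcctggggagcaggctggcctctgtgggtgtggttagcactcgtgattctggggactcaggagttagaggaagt
Both strands of the 250 bases were searched for TGANTCA (AP-1), TTCNNNGAA (gamma-activated site core) and the core of the interferon-stimulated response element. Of 32851 mouse windows of the same length, 6.75%, 7.02% and 2.98% held a match. Among the 7 checkpoint genes, Cd80 (first base 42 bases before the start) and Havcr2 (200 bases before) held 1 match to TGANTCA each. Both matches read TGATTCA, and whether AP-1 binds them was not tested. The other motifs had no match in these windows. The Cd80 window lies inside an intron of a longer annotated Cd80 transcript.

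Expressed per kilobase of the longest coding transcript, the checkpoint genes fell into a more abundant and a less abundant set. Over the 41 tumors, the median level per kilobase was 101.6 for Cd274, 74.8 for Havcr2, 74.7 for Lag3 and 66.6 for Cd86. It was 5.88 for Cd80, 4.71 for Ctla4, 4.70 for Tigit, 4.69 for Pdcd1, 2.67 for Ido1 and 2.53 for Pdcd1lg2. Within each set, neighboring ranges overlapped almost entirely, so the order inside a set is not resolved. Cd274, Lag3, Havcr2, Cd80 and Cd86 were above the floor of 3 reads in all 41 tumors. Ido1 was at or below it in 16 tumors, Tigit in 13, Pdcd1lg2 in 10, Ctla4 in 7 and Pdcd1 in 6.

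**Figure D1:**
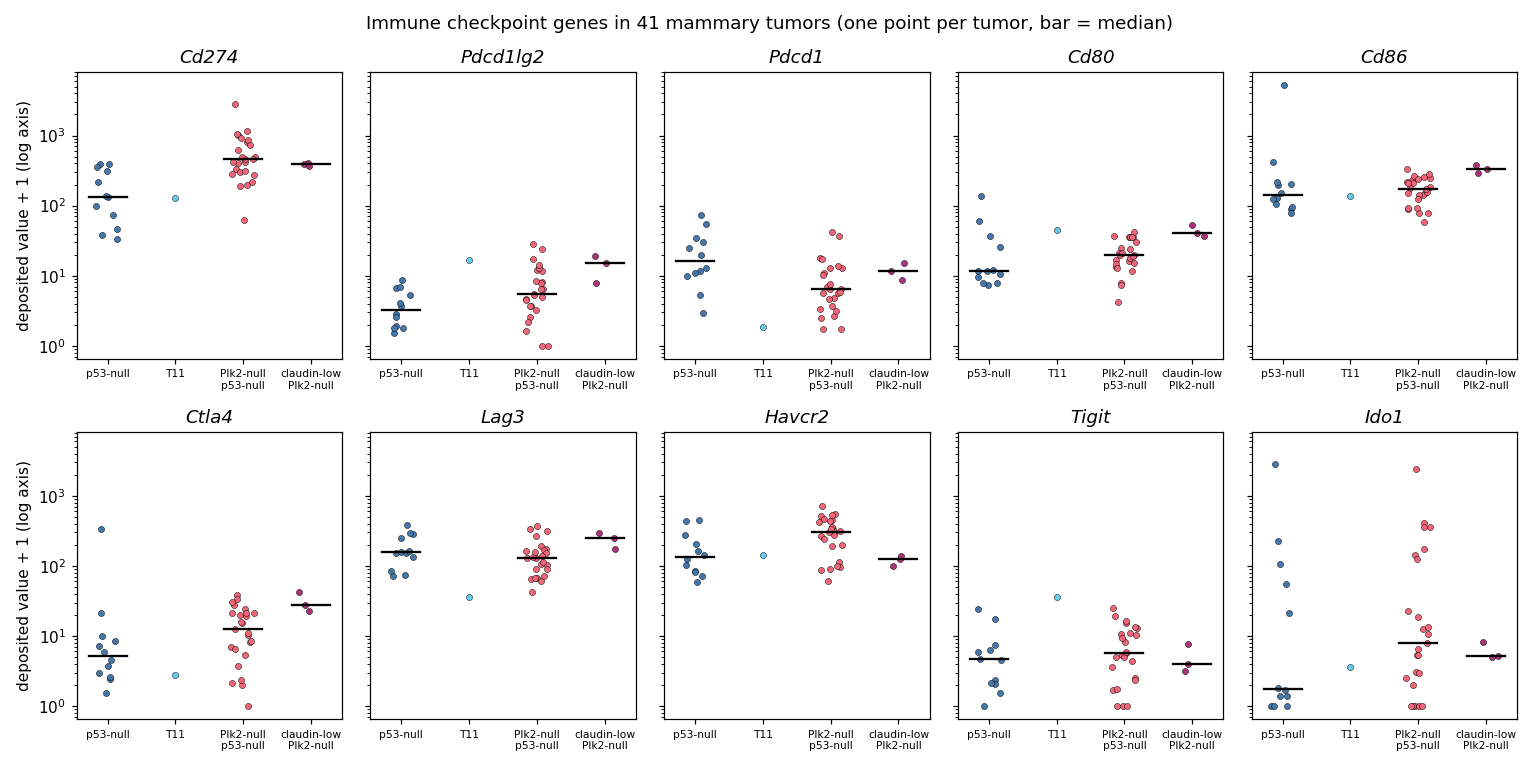
Deposited value + 1 (log axis) of each checkpoint gene, 1 point per tumor, in 12 other p53-/- tumors, T11, 25 other Plk2-/-; p53-/- tumors and 3 claudin-low Plk2-/-; p53-/- tumors, with bars at the median where a group has more than 1 tumor. Cd274 ran higher in Plk2-/-; p53-/- tumors, p53null-5317 stood alone for Cd86 (5281) and Ctla4 (331), and Ido1 spanned from 0 to 2804.

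Between genotypes, Cd274 was the only checkpoint gene that passed the test, and it was higher in Plk2-/-; p53-/- tumors. Cd274 ranged from 61.0 to 2862 (median, 420) in the 28 Plk2-/-; p53-/- tumors and from 32.3 to 392 (median, 130.5) in the 13 p53-/- tumors. The groups overlapped, but 18 Plk2-/-; p53-/- tumors lay above every p53-/- tumor and 27 lay above the p53-/- median. The difference in mean log2(value + 1) was 1.79 (SE 0.37; 95% interval, 1.05 to 2.54), a 3.46-fold difference with a limma adjusted p of 0.000131. The highest Cd274 values were 2862 in PLK2null-1987 and 1159 in PLK2null-1981, and the lowest Plk2-/-; p53-/- value was 61.0 in PLK2null-7748. Of the 8 checkpoint genes that passed the filter of a mean of at least 10, 1 was called higher and 0 lower by limma, and 3 had an unadjusted p below 0.05. Over all 17208 genes tested, 39.5% were called (24.3% higher and 15.3% lower), so the count of checkpoint genes called was not above the background. Their median log2 difference was 0.33, beside 0.10 over all genes tested.

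The Cd274 difference moved with the leukocyte gene Ptprc (CD45), which was itself higher in Plk2-/-; p53-/- tumors (log2 difference, 1.17). With log2(Ptprc + 1) as a covariate, the Cd274 difference was 0.90 (adjusted p = 0.0749). The other 3 leukocyte genes, Coro1a, Laptm5 and Cd53, did not pass the test between genotypes (adjusted p = 0.0996, 0.428 and 0.126). With their mean as the covariate, an alternative added after the data were seen, the Cd274 difference was 1.86 (adjusted p = 3.7e-06). Against the 13 p53-/- tumors, the 7 Plk2-/-; p53-/- tumors whose numbers match primary tumors followed in the study gave 1.18 (adjusted p = 0.177), although the labels do not mark them as primary. None of 10 T cell markers was called between genotypes (0 at an unadjusted p below 0.05), and summed T cell markers ran from 154.5 to 4333 in Plk2-/-; p53-/- and 75.2 to 1760 in p53-/- tumors. Of 8 macrophage markers, 1 was higher, with sums of 6257 to 44366 and 8632 to 32036. Of 4 neutrophil markers tested, 2 were higher, with sums of 227 to 2945 and 160 to 3072, and of 6 dendritic cell markers tested, 2 were higher, with sums of 545 to 4974 and 450 to 1892. Of 8 epithelial markers, 2, the basal keratins Krt5 and Krt14, were lower, with sums of 53.6 to 119280 and 33791 to 299230, as was 1 of 4 adipocyte markers tested, with sums of 227 to 124735 and 423 to 3696. The part of these cell types in the Cd274 difference was not tested further.

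The other gene of the PD-1 ligand pair, Pdcd1lg2, was too low for the filter. It ranged from 0 to 27.6 (median, 5.51) in Plk2-/-; p53-/- tumors and from 0.53 to 15.6 (median, 2.66) in p53-/- tumors. Without a filter, its log2 difference was 0.71 (95% interval, -0.09 to 1.52; adjusted p = 0.200 over all genes). Pdcd1, their receptor, leaned the other way: 0.72 to 40.5 (median, 5.66) in Plk2-/-; p53-/- and 0.87 to 73.0 (median, 12.01) in p53-/- tumors. Its log2 difference of -0.97 (SE 0.43; 95% interval, -1.84 to -0.10) missed the threshold (adjusted p = 0.0697). Pdcd1 passed the filter through the p53-/- tumors alone, with a mean of 21.6 there and 9.11 in Plk2-/-; p53-/- tumors, so its calls below are a description and no support for a direction. Pdcd1 passed it without the 4 claudin-low tumors (-1.29, adjusted p = 0.0150), without p53null-5317 (-1.16, adjusted p = 0.0301) and with Ptprc as a covariate (-1.96, adjusted p = 0.0010). With the mean of Coro1a, Laptm5 and Cd53 it did not (-0.92, adjusted p = 0.0658). Relative to Ptprc, the median Pdcd1 value was 0.479% in Plk2-/-; p53-/- tumors and 2.36% in p53-/- tumors.

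Ctla4, the competitor for Cd80 and Cd86, ranged from 0 to 41.2 (median, 14.5) in Plk2-/-; p53-/- tumors and from 0.53 to 331 (median, 3.49) in p53-/- tumors. Its log2 difference of 0.83 was not called (95% interval, -0.25 to 1.91, limma adjusted p = 0.222). Without p53null-5317 the Ctla4 difference was 1.30 (limma adjusted p = 0.0209). In that setting Ctla4 passed the filter through the Plk2-/-; p53-/- tumors alone (mean, 15.5), so the call is a description and no support for a direction. Cd80 had medians of 19.6 (3.18 to 52.7) and 10.6 (6.39 to 138), with a log2 difference of 0.15 (95% interval, -0.54 to 0.85; adjusted p = 0.754). That direction turned to -0.95 with Ptprc as a covariate (adjusted p = 0.0142) and stayed at 0.23 with the 3 other leukocyte genes (adjusted p = 0.410). Cd86 had medians of 180 (56.5 to 380) and 138 (77.6 to 5281), with a log2 difference of -0.15 (95% interval, -0.85 to 0.56; adjusted p = 0.774). Without p53null-5317 the Cd86 difference was 0.25 (adjusted p = 0.437).

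Lag3 ranged from 41.9 to 369 (median, 135) in Plk2-/-; p53-/- and from 35.5 to 380 (median, 153) in p53-/- tumors, and the log2 difference was -0.08 (95% interval, -0.66 to 0.50; adjusted p = 0.856). Havcr2 ranged from 58.8 to 706 (median, 280) and from 58.1 to 444 (median, 142). Its log2 difference of 0.69 (SE 0.32; 95% interval, 0.04 to 1.34) was not called (adjusted p = 0.0835). It was 0.75 with the mean of Coro1a, Laptm5 and Cd53 as the covariate (adjusted p = 0.0117) and -0.01 with Ptprc (adjusted p = 0.988). Tigit reached 24.3 and 35.1, with medians of 4.52 and 3.75 and a log2 difference of 0.07 without a filter (95% interval, -0.86 to 1.01; adjusted p = 0.922). These 3 inhibitory receptors therefore overlapped widely between genotypes, and the intervals leave room for differences in either direction for Lag3 and Tigit.

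Ido1 was close to an on or off gene across tumors. Its median was 4.42 over 41 tumors, 8 tumors were at 0, and p53null-2331L (2804) and PLK2null-1965 (2420) stood far above the next tumor, PLK2null-1971 (408). The range was 0 to 2420 (median, 6.27) in Plk2-/-; p53-/- and 0 to 2804 (median, 0.80) in p53-/- tumors. The log2 difference of 0.51 had a 95% interval of -1.69 to 2.71 (adjusted p = 0.745), so genotype was poorly resolved for this gene. In these 2 tumors Cd274 was 130.5 and 416, Ptprc was 515 and 677, and Pdcd1 was 33.6 and 16.5, the former the fifth highest of 41.

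**Figure D2:**
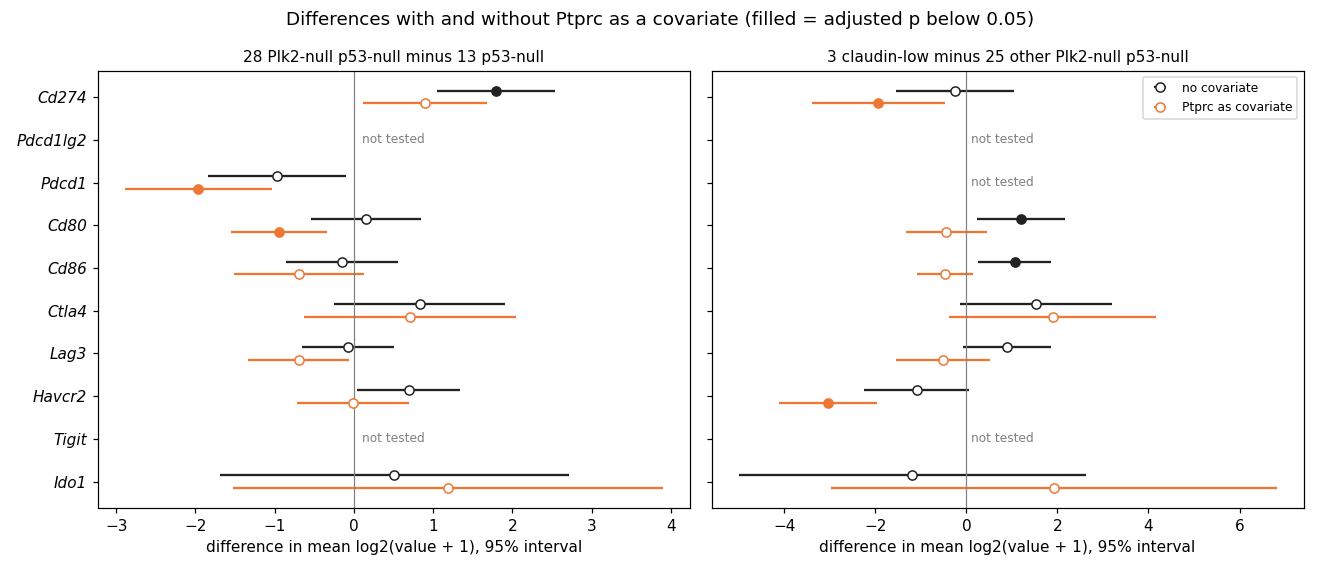
Difference in mean log2(value + 1) with its 95% interval for each checkpoint gene, between genotypes on the left and between 3 claudin-low and 25 other Plk2-/-; p53-/- tumors on the right, without a covariate (black) and with Ptprc as a covariate (orange). Filled points had a limma adjusted p below 0.05. Without the covariate these were Cd274 on the left (1.79) and Cd80 (1.20) and Cd86 (1.06) on the right. With it they were other genes on each side, all lower. On the right, Ptprc did not overlap between the groups, so the orange points there extrapolate.

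Within the Plk2-/-; p53-/- genotype, the claudin-low tumors held more of the B7 ligands Cd80 and Cd86. Cd80 was 35.8 in PLK2null-732, 52.7 in PLK2null-733 and 40.1 in PLK2null-743, against 3.18 to 41.7 (median, 18.7) in the other 25 tumors. Only 1 of the 25, PLK2null-1981, lay above the claudin-low median. The log2 difference was 1.20 (SE 0.47; 95% interval, 0.24 to 2.17; limma adjusted p = 0.0447). Cd86 was 333, 289 and 380 in the same order, against 56.5 to 335 (median, 169), and again 1 other tumor, PLK2null-1987, lay above the claudin-low median. The log2 difference was 1.06 (SE 0.39; 95% interval, 0.26 to 1.86; adjusted p = 0.0333). By an exact 2-sided permutation test over all splits of 3 against 25 tumors, unadjusted p was 0.00305 for Cd80 and 0.00183 for Cd86 (smallest possible, 0.00061). These were 2 of 7 checkpoint genes tested, beside 37.3% of 17153 genes called (20.2% higher and 17.1% lower), so the share was not above the background. The median log2 difference of the 7 was 0.89, beside 0.02 over all genes. Neither call was kept when any 1 of the 3 claudin-low tumors was left out, although the log2 differences stayed at 1.05 to 1.32 for Cd80 and 0.97 to 1.16 for Cd86.

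Other checkpoint genes did not pass the test in this comparison. Ctla4 was 21.5, 26.4 and 41.2 in PLK2null-732, PLK2null-733 and PLK2null-743, against 0 to 37.3 (median, 11.5), with a log2 difference of 1.53 (SE 0.82; adjusted p = 0.146). Lag3 was 247, 176 and 296, against 41.9 to 369 (median, 130), with a log2 difference of 0.89 (SE 0.47; adjusted p = 0.142). All 3 tumors were above the median of the other 25 for both receptors. Havcr2 leaned down, at 123, 100.1 and 135.5 against 58.8 to 706 (median, 307), with a log2 difference of -1.10 (SE 0.56; adjusted p = 0.129). Cd274 was 411, 368 and 392, inside the range of the other tumors (log2 difference, -0.25; 95% interval, -1.54 to 1.04; adjusted p = 0.788). Ido1 was 7.16, 4.19 and 3.95 (log2 difference, -1.19; 95% interval, -5.01 to 2.63; adjusted p = 0.653), and it passed the filter through the other 25 tumors alone. Below the filter, the log2 differences were 1.20 for Pdcd1lg2 (adjusted p = 0.273), 0.75 for Pdcd1 (adjusted p = 0.521) and -0.24 for Tigit (adjusted p = 0.863).

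Markers of several cell types moved with the claudin-low tumors. All 10 T cell markers were higher, with sums of 2522 to 4333 against 154.5 to 2986, as were 5 of 6 B cell markers (963 to 1279 against 46.6 to 6288) and 5 of 6 dendritic cell markers tested (3604 to 4974 against 545 to 3029). All 6 endothelial markers were also higher, with sums of 165585 to 186496 against 2572 to 78025. The adipocyte sums, 99137 to 124735 against 227 to 52117, did not overlap either, with 1 of 4 markers tested called higher. These sums are weighted toward Fabp4. Over all tumors its median was 883, beside 55.9 for Cfd, 12.7 for Adipoq, 6.24 for Plin1 and 1.30 for Lep. Outside the claudin-low tumors, PLK2null-7763 had both the highest adipocyte sum (52117) and the highest endothelial sum (78025). Whether the adipocyte sums reflect adipocytes was not tested. Of 6 fibroblast markers 3 were lower, with sums of 14888 to 56137 against 12210 to 280437. Of 8 macrophage markers 1 was higher, and their sums, 14067 to 23621 against 6257 to 44366, overlapped. Ptprc was 2618 to 3653 in the claudin-low tumors and 359 to 1962 in the others, with no overlap. Differences with Ptprc as a covariate in this comparison therefore extrapolate beyond any Ptprc value shared by both groups. With Ptprc as a covariate, neither Cd80 (-0.44, adjusted p = 0.444) nor Cd86 (-0.47, adjusted p = 0.216) was called. With the mean of Coro1a, Laptm5 and Cd53, Cd86 was still called (0.56, adjusted p = 0.0349) and Cd80 was not (0.66, adjusted p = 0.0963).

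Relative to leukocyte genes, the claudin-low tumors were low in Havcr2. Havcr2 amounted to 3.02 to 4.70% of Ptprc in the 3 tumors and to 8.17 to 46.7% in the other 25, with no overlap. Ptprc, the divisor, did not overlap between these groups either, so low ratios to Ptprc are in part set by Ptprc itself. Havcr2 alone overlapped, at 100.1 to 135.5 against 58.8 to 706. How many other genes would separate when divided by Ptprc was not counted. Relative to the macrophage gene Csf1r, Havcr2 was 2.98 to 4.61% against 3.70 to 23.7%, which overlapped. The log2 difference of Havcr2 was -3.04 with Ptprc as a covariate (limma adjusted p = 7.4e-05) and -1.74 with the 3 other leukocyte genes (limma adjusted p = 0.00052). The covariate differences with Ptprc in this paragraph extrapolate, as Ptprc values did not overlap between these groups. Cd274 was 10.7 to 15.7% of Ptprc in the claudin-low tumors and 15.8 to 185% in the others. The log2 difference of Cd274 was -1.93 with Ptprc as a covariate (limma adjusted p = 0.0331) but -0.80 with the other genes (limma adjusted p = 0.238).

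The p53-/- claudin-low tumor T11 had a different checkpoint profile. T11 had the highest Tigit (35.1) and the lowest Lag3 (35.5) of all 41 tumors, and its Pdcd1 (0.87) was at or below its floor of 3 reads. Pdcd1lg2 was 15.6, the highest of the 13 p53-/- tumors, and Cd80 was 44.6, the third highest. Cd86 (138), Cd274 (128), Havcr2 (143) and Ctla4 (1.73) lay inside the p53-/- range. T11 also held little T cell RNA, with Cd3e at 6.49 and summed T cell markers at 75.2, the lowest of the p53-/- tumors. Its Ptprc was 431, while its 4 leukocyte genes summed to 11687, the highest of all 41 tumors. T11 had no replicate, so its values carry no error of their own.

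Across both genotypes, the 4 claudin-low tumors against the other 37, with genotype as a term, gave 0 of 8 checkpoint genes called by limma, and 1 at an unadjusted p below 0.05, beside 31.3% of 17208 genes called (16.1% higher and 15.2% lower). The median log2 difference of the 8 was -0.04, beside -0.01 over all genes. The gene below 0.05 was Cd80 (log2 difference, 1.26; SE 0.51; 95% interval, 0.24 to 2.28; adjusted p = 0.0534). Cd80 was above the mean of the other tumors of its genotype in 4 of 4 claudin-low tumors, by 0.97 to 1.52 on the log2 scale. With Ptprc as a covariate, Havcr2 was called lower (-1.81, adjusted p = 0.00088), and it was also called lower with the other leukocyte genes (-1.59, adjusted p = 0.00015). Relative to Ptprc, T11 did not share this: its Havcr2 amounted to 33.1% of Ptprc, beside a median of 27.6% in the other p53-/- tumors. Without a covariate, Havcr2 of T11 lay -0.02 on the log2 scale from their mean. The 4 leukocyte genes of T11 summed to 11687, beside a median of 4113 in those tumors. The statement for T11 therefore covers Ptprc alone and does not extend to the other leukocyte genes.

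**Figure D3:**
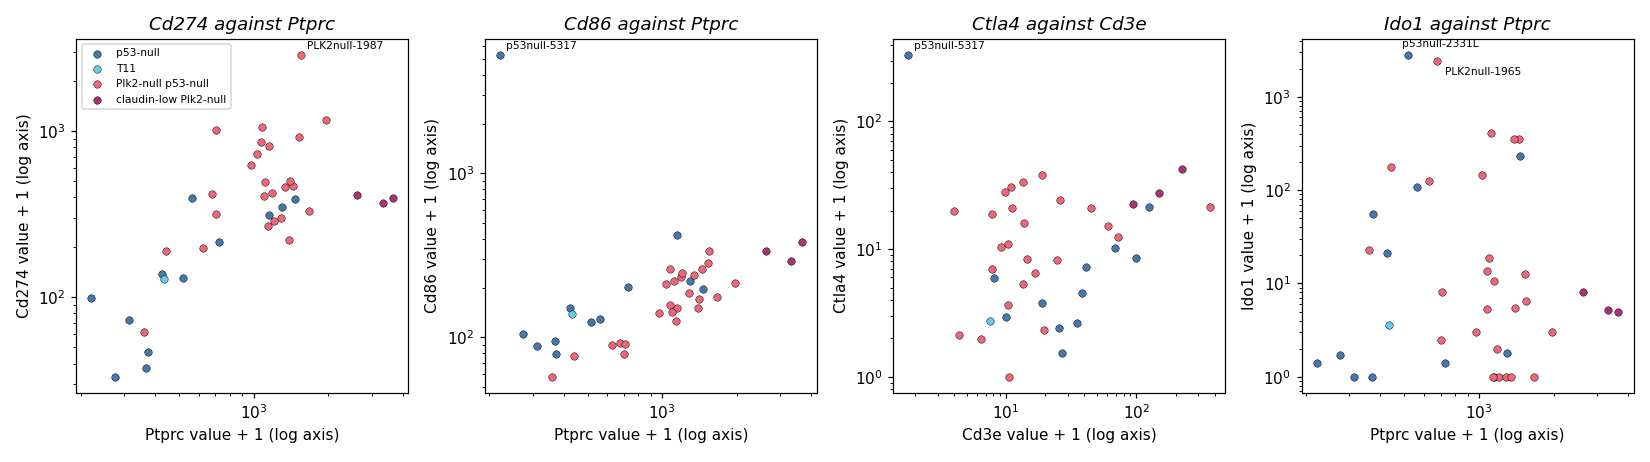
Value + 1 on log axes of Cd274, Cd86 and Ido1 against Ptprc and of Ctla4 against Cd3e in 41 tumors, colored by group as in the plot of all checkpoint genes. Cd86 and Ctla4 of p53null-5317 lay far from all other tumors at the lowest Ptprc (220) and Cd3e (0.78), and the claudin-low Plk2-/-; p53-/- tumors lay at the right end for Ptprc.

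One p53-/- tumor, p53null-5317, was apart for Cd86 and Ctla4. Cd86 was 5281 there, 12.5-fold above the next tumor and 31.2-fold above the median, and Ctla4 was 331, 8.02-fold above the next tumor. Ctla4 rested on 853 reads. The same tumor had the lowest Ptprc (220), Cd3e (0.78) and Cd8a (0.78) of all 41, and its Cd80 was 6.98. Of the genes next to Ctla4 on chromosome 1, Cd28 was 17.8 there, which ranked 17, and Icos was 1.16, which ranked 39. Next to Cd86 on chromosome 16, Ildr1 was 817, beside a median of 876 over 41 tumors. Because of this tumor, the p53-/- mean of Cd86 was 555 ± 1423 (SD, n = 13) while the median was 138.

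Across tumors, checkpoint genes followed leukocyte genes to different degrees. These are descriptions over tumors that may share a primary tumor. In the 28 Plk2-/-; p53-/- tumors, Pearson r with Ptprc on log2(value + 1) was 0.87 for Cd86, 0.79 for Cd80, 0.67 for Lag3, 0.37 for Cd274, 0.28 for Havcr2 and -0.34 for Ido1. In the 13 p53-/- tumors it was 0.91 for Havcr2, 0.81 for Cd274 and -0.08 for Cd86, for which Spearman's rho was 0.43. Cd86 and Ctla4 had an r of 0.93 in p53-/- and -0.04 in Plk2-/-; p53-/- tumors, and p53null-5317 was the farthest tumor for both genes. By rank, Spearman's rho of this pair was 0.71 in p53-/- and -0.03 in Plk2-/-; p53-/- tumors. Cd80 and Cd86 had an r of 0.78 in Plk2-/-; p53-/- tumors, and Cd274 and Pdcd1lg2 one of 0.59.

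**Figure D4:**
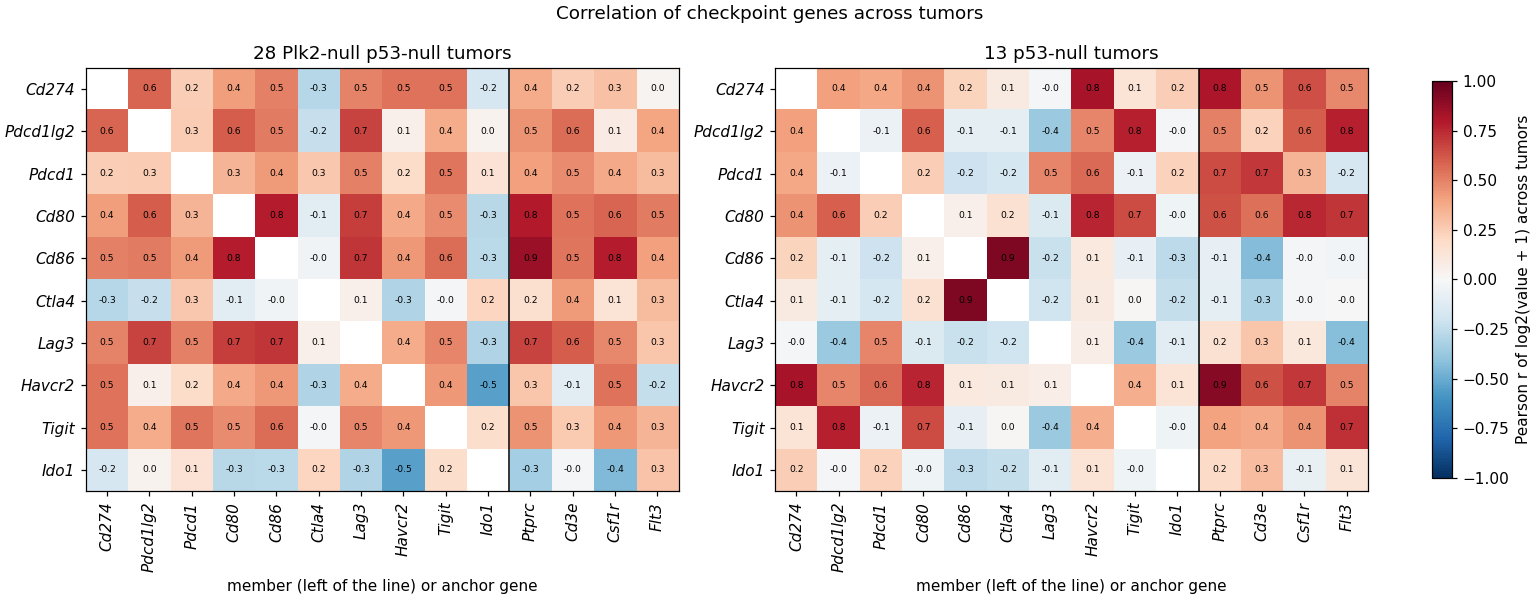
Pearson r of log2(value + 1) between checkpoint genes, and with Ptprc, Cd3e, Csf1r and Flt3 to the right of the line, across 28 Plk2-/-; p53-/- tumors (left) and 13 p53-/- tumors (right). Cd80, Cd86, Lag3 and Ptprc formed a block of high values on the left, while the Cd86 and Ctla4 pair (0.93; Spearman's rho, 0.71) stood out on the right.

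Over all 41 tumors, the gene most like Havcr2 was Ctss, a lysosomal protease of antigen-presenting cells (r = 0.93), followed by Cybb (0.90) and Clec5a (0.89), genes of myeloid cells. For Cd274 it was Rnf213 (0.89), before F7 (0.87) and Sirpb1a (0.85). Lag3 was most like the class II antigen-presentation genes H2-DMb2 (0.74), H2-DMb1 (0.68) and Cd74 (0.66). Pdcd1 was most like H2-Eb1 (0.74), H2-Aa (0.71) and the cytotoxic granule gene Nkg7 (0.71), Tigit like Amica1 (0.67), Eomes (0.58) and Camk2d (0.57), and Cd80 like Pla2g15 (0.79), Nlrp3 (0.76) and Ncf1 (0.76). Pdcd1lg2 was most like Pilrb1 (0.76), Pilra (0.75) and Pilrb2 (0.75), and Ido1 like Cyp3a57 (0.85), Muc16 (0.84) and Fam90a1a (0.83). For Cd86 the closest genes were Fgf23 (0.76), Parvg (0.72) and Sim2 (0.62), and without p53null-5317 the r with Fgf23 was 0.35. For Ctla4 they were Zfp12 (0.72), Dcp1b (0.67) and Pacsin1 (0.66).

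Near Cd274 on chromosome 19, most genes did not follow it. Of 7 listed neighbors tested between genotypes, Ric1 was higher (log2 difference, 0.52; adjusted p = 0.000135) and Rcl1 lower (-0.65; adjusted p = 0.00543). Plgrkt, which starts 65 bases from the GENCODE start of Cd274, had a log2 difference of -0.04, and Jak2, a kinase of interferon signaling 54375 bases away, one of 0.17, and neither was called. In PLK2null-1987, where Cd274 and Pdcd1lg2 were highest, Jak2 was 3091 and Ric1 1927, each the second highest of 41 tumors, while Plgrkt was 888 and ranked 18.

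Other genes of these pathways were read from lists. Of 8 further B7 and CD28 family genes, 3 were higher and 1 lower in Plk2-/-; p53-/- tumors, beside 39.5% of all genes called. The counts of the lists below are likewise to be read against 39.5% between genotypes and 37.3% within Plk2-/-; p53-/- tumors, and nothing particular to a list follows from them. The inhibitory receptor Btla (285 ± 383 against 45.7 ± 55.9, SD; log2 difference, 2.13; adjusted p = 0.00447) and its ligand Tnfrsf14 (0.76; adjusted p = 0.0141) rose, and the inhibitory ligand Vtcn1 fell by 1.93 on the log2 scale (adjusted p = 0.0329). In the claudin-low tumors of that genotype 4 were higher and 1 lower: Cd28 rose by 3.48 (adjusted p = 0.00276) and Icos by 2.68 (adjusted p = 0.00558), and Vtcn1 was 0.48 ± 0.83 against 227 ± 223 (adjusted p = 9.6e-08), having passed the filter through the other 25 tumors.

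Of 10 partners of Lag3, Havcr2 and Tigit, 8 were tested. Between genotypes 0 were called by limma and 1 had an unadjusted p below 0.05. In the claudin-low Plk2-/-; p53-/- tumors 4 were higher and 1 lower. Pvrl2 (nectin-2), a Tigit ligand, was 9597 ± 765 (SD, n = 3) against 1667 ± 494 (n = 25), a log2 difference of 2.58 (adjusted p = 2.6e-09), and the receptor Cd96 was higher by 2.71 (adjusted p = 0.00118), having passed the filter through the claudin-low tumors, where it was 52.2 ± 16.8 against 9.36 ± 8.38. Ceacam1, a proposed Havcr2 ligand, fell by 3.68 (adjusted p = 0.00021).

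In the interferon-gamma pathway, whose signal raises Cd274 and Ido1 in many cells, 1 of 9 genes tested was higher between genotypes (39.5% of all genes were called), the transcription factor Irf1 (log2 difference, 0.68; adjusted p = 0.00364), and none was lower. In claudin-low Plk2-/-; p53-/- tumors 2 were higher (37.3% of all genes were called), Jak1 (1.17; adjusted p = 2.4e-06) and Ifngr1 (0.73; adjusted p = 0.0257). Of 6 other tryptophan-degrading genes and their sensor, Tdo2, the liver-type enzyme for the same step as Ido1, was the 1 gene higher between genotypes (12.6 ± 8.71 against 4.65 ± 2.65; log2 difference, 1.23; adjusted p = 8.3e-05). Tdo2 passed the filter through the group where it was high, so this call is a description only. Tdo2 (1.57; adjusted p = 0.00048) and Kmo (1.73; adjusted p = 0.0446) were higher in claudin-low tumors.

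Among 7 TNF-family costimulation genes tested, Cd27 was higher between genotypes (1.17; adjusted p = 0.0121), with 39.5% of all genes called. In claudin-low tumors 4 were higher and 1 lower, with 37.3% of all genes called: Tnfrsf9 (4-1BB) was 8871 ± 3330 against 488 ± 486 (log2 difference, 4.94; adjusted p = 0.00036), and Cd40 (2.88; adjusted p = 3.2e-05) and Cd27 (2.45; adjusted p = 0.00039) also rose. Of 9 T cell state genes, Ikzf2 (1.09; adjusted p = 0.0498) and Prdm1 (0.89; adjusted p = 0.0225) were higher between genotypes. In claudin-low tumors the cytotoxic granule gene Prf1 rose by 3.64 (adjusted p = 0.00087) and Prdm1 by 1.27 (adjusted p = 0.0172), and Ikzf2 fell by 2.93 (adjusted p = 1.4e-05). Between genotypes none of the 10 T cell markers was called. In claudin-low tumors the list genes moved beside the T cell, B cell, dendritic cell and endothelial markers given above. The summed adipocyte markers, weighted toward Fabp4, moved too, but only 1 of 4 tested was called. The part of these cells was not tested.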

How the data were processed

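RNA from 41 mouse mammary tumors was sequenced as paired ends, 1 library per tumor. The submitters' processing notes name mm10, STAR 2.7.6a, SAMtools, Picard 2.22.4 and Salmon 1.4.0. The authors deposited a linear signal, Salmon gene counts divided by each tumor's upper quartile. Low values lay on steps worth 1 read, but only 77.9 to 80.6% of a tumor's nonzero values were whole reads within 0.1 read, so no count model was used. Intervals and floors cover counting error only where reads are named. A constant of 1 was added, values were taken to log2, and limma (version 3.58.1; R 4.3.3; no trend) compared groups for every gene averaging 10 or more across the samples entered, with Benjamini-Hochberg adjustment over all genes tested and a threshold of 0.05. This scale understates changes of low genes. Permutation tests used scipy 1.17.1, exact for 3 against 25 tumors and with 100000 resamples for 28 against 13. The limma step was tested on simulated data with 100 genes changed by a log2 difference of 1 or of 2. Between genotypes 66% and 87% were recovered among 17208 genes, and 23% and 68% for 3 against 25 among 17153. The changed genes were drawn only from genes above a set mean log2 level. Cd80 (4.31), Ido1 (3.47), Ctla4 (3.26) and Pdcd1 (3.17) lay below that level, so these rates do not cover them. Genotype came from the sample labels and claudin-low from the study. The checkpoint genes and lists were chosen with earlier results of these data known. Named genes were the 10 checkpoint genes, anchor and label-check genes, the 3 largest called changes per list, the 3 most alike genes by Pearson r, and neighbors of Cd274. Gene positions came from GENCODE vM21 (GRCm38). Alternatives were other pseudocounts, filters, a trend, scalings, leukocyte covariates and fewer tumors.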

Additional observations from a re-analysis of the deposited data

Results flagged for a closer look

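Among the 4 claudin-low tumors, Cd274 of T11 was far below the others, at 128 with the next tumor at 368. T11 was the only p53-/- tumor among them, and Cd274 was lower in that genotype. Its Cd274 lay -0.04 on the log2 scale from the mean of the other p53-/- tumors, so T11 was not unusual for its genotype. Of 20 such groups of 4 or 7 tumors (the claudin-low tumors and the 7 primary tumors, for 10 genes), this was the 1 with a single tumor far from the rest, and chance alone gives about 1 in 20.

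Lag3 of T11 went the other way from Lag3 of the claudin-low Plk2-/-; p53-/- tumors. It was 0.47 to 1.22 on the log2 scale above the other tumors in the 3 Plk2-/-; p53-/- tumors and 2.14 below them in T11 (-2.14), and the difference between these was 3.02 (limma adjusted p = 0.0331). That test assumes that T11, a single tumor, varies like the rest, and 1715 of 17208 genes were called in it, so it compares T11 with those tumors and does not show that the genotypes differ.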

How the results depend on the processing

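The number of genes called stayed within 1.5 times of the reported number in each comparison, except that 2942 were called between genotypes with only the 7 primary tumors, and leaving out 1 claudin-low tumor gave 4527 to 4629 within the genotype and 3878 to 5691 in both. Median-of-ratios rescaling moved the genotype median of all genes from 0.10 to -0.02, a shift over 0.1, and the split from 4175 higher and 2627 lower to 3391 and 3484; quantile normalization gave 3489 and 3258. In place of 1, the number of checkpoint genes called between genotypes was 2 with pseudocount 10, quantile normalization, median-of-ratios rescaling, the Ptprc covariate (both lower), the Coro1a, Laptm5 and Cd53 covariate (added after seeing the data) or without the 4 claudin-low tumors, 3 without p53null-5317 or with both the Ptprc covariate and no claudin-low tumors (both added after seeing the data), and 0 with the 7 primary tumors. In place of 2 within the genotype, it was 1 without a filter, with a filter of 50, with a trend or against the 7 primary tumors, and 0 with quantile normalization, with median-of-ratios rescaling or without any 1 claudin-low tumor (0 to 0). In place of 0 in both genotypes, it was 1 with pseudocount 10, quantile normalization or either leukocyte covariate, and 0 to 0 with 1 tumor left out. Apart from what these settings construct, the cause was not tested.

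Directions that turned were all of differences not called as reported, except Cd80 and Cd86 in claudin-low tumors with Ptprc (-0.44 and -0.47). Between genotypes, Cd80 turned with quantile normalization (-0.13), the Ptprc covariate (-0.95; -0.88 without claudin-low tumors) and the 7 primary tumors (-0.049), Havcr2 with Ptprc (-0.0089; -0.28 without claudin-low tumors), Cd86 without p53null-5317 (0.25) and Tigit with pseudocount 10 (-0.020). Within the genotype, Lag3 (-0.52) and Ido1 (1.91) turned with Ptprc, whose values did not overlap between those groups, and Cd274 (0.39) turned against primary tumors. In both genotypes, Lag3 turned with Ptprc (-0.58), with the other leukocyte genes (-0.23) and without PLK2null-732 or PLK2null-743 (-0.14 and -0.23). With 1 claudin-low tumor left out, Lag3 ran from -0.23 to 0.89 and Pdcd1 from -0.68 to 0.75, the highest of both without T11. No paired analysis was possible because the labels give no replicate numbers shared between groups. Depth limits Ido1, Tigit, Pdcd1lg2, Ctla4 and Pdcd1, which had tumors at or below 3 reads.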
